A study of Papilio machaon with 10 samples.

Results

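A set of 74 genes of the swallowtail butterfly Papilio machaon had a sex difference in the pupa and the opposite sex difference in the adult. They were chosen by the measured values of the 4 pupal and adult libraries (1 of each sex in each stage) out of 15285 genes in all. A gene was kept when its mean over these 4 libraries was at least 1 RPKM (reads per kilobase of gene, scaled to the size of the library), which 13791 genes reached, and when female minus male log2(RPKM + 1) was at least 2 in 1 stage and at most -2 in the other. Because these values chose the members, the differences in pupa and adult are given as a description, without a test. A difference of 2 on this scale is 4-fold for an abundant gene and more than 4-fold for a gene with low values, since 1 is added before the logarithm.

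The series holds 10 whole-body libraries, with 1 library for the egg, 1 for each of the larval instars L1 to L5, and 1 for each sex of pupa and of adult, and no treatment or altered gene was part of the design. Pupae came mainly from insectariums, and others were raised from collected larvae. The egg, L1 and L2 libraries pooled several individuals, and every other library came from a single individual, so that the sex of a pupa or adult cannot be told apart from the individual or from its exact age. No sex was given for eggs and larvae. The reads on genes, worked out from the steps between RPKM values, ran from 23239554 in L5 to 35985078 in L2.

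In butterflies the pupa is the stage at which the larval body is rebuilt into that of the adult, and the reproductive organs and the adult wings, legs and sense organs take shape then. Males of butterflies carry a pair of Z chromosomes, and females a Z and a W. Whole-body RNA sums over gonads and all other tissues, so fewer cells of a type and less RNA per cell cannot be told apart in these libraries. The eggs of insects are stocked by the mother with RNA during oogenesis. The table lists genes by locus tag, and no table used here pairs these tags with gene names, so neither functions nor markers of sex and tissue could be read for any member. For the same reason the labels for sex and tissue were not checked against marker genes.

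The members formed 2 classes by direction. In 45 genes, called the female-to-male class here, the female was higher in the pupa and the male in the adult. In the other 29 genes, the male-to-female class, the male was higher in the pupa and the female in the adult. Across all 13791 genes, 3.47% were at least 2 higher in the female pupa and 8.9% at least 2 higher in the male pupa. In the adult, 2.73% were at least 2 higher in the female and 8.95% at least 2 higher in the male. The 74 members make up 0.537% of the genes, against 3.01% (415 genes) that differed by at least 2 in both stages in the same direction. The female-to-male class held 9.39% of the genes that were higher in the female pupa and 3.65% of those higher in the male adult. The male-to-female class held 2.36% of the genes higher in the male pupa and 7.71% of those higher in the female adult. The rule itself fixes these shares, and nothing is read from them.

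**Figure D1:**
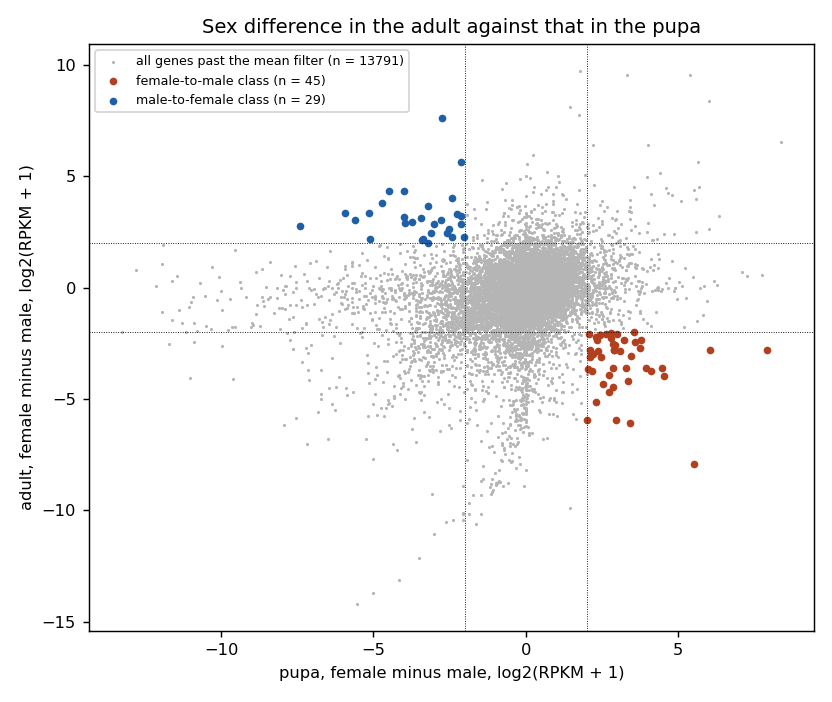
Female minus male log2(RPKM + 1) in the adult (vertical axis) against the pupa (horizontal axis) for 13791 genes, 1 point per gene, with dotted lines at 2 and -2. The 45 genes of the female-to-male class sit in the lower right corner and the 29 of the male-to-female class in the upper left.

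The members are not an abrupt group at the edge of the rule. The smaller of a gene's 2 absolute sex differences measures how far it reverses in both stages. In the female-to-male class, the 3 members just inside the rule had 2.01, 2.02 and 2.03, and the 3 genes just outside had 1.84, 1.99 and 1.99. In the male-to-female class, the members just inside had 2.01, 2.05 and 2.12, and the genes just outside 1.95, 1.95 and 1.96. The largest value of this measure was 5.51 in the female-to-male class and 4.34 in the male-to-female class, and the class medians were 2.53 and 2.76. The members were also not confined to low levels. Their mean over the 4 sexed libraries ran from 2.47 to 1420.4 RPKM, with a median of 31.0 RPKM, against a median of 15.4 RPKM over all 13791 genes. The rule itself sets part of this, since a difference of 2 in each stage cannot be reached at very low values.

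The sex ratios of named members are given with a 95% Clopper-Pearson counting interval or, at 0 reads, with the bound that 3 reads allow. Since these ratios chose the members, the intervals only describe the depth behind each value. They cover counting error and not the spread between individuals, which 1 library per group cannot show. The fewest reads that any member had in a library where it was high was 17, and the median of the smaller of the 2 high read numbers was 401.5. In the libraries where a member was low, 27 of the 74 genes had fewer than 10 reads in at least 1 library, and 6 had 0 reads.

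**Figure D2:**
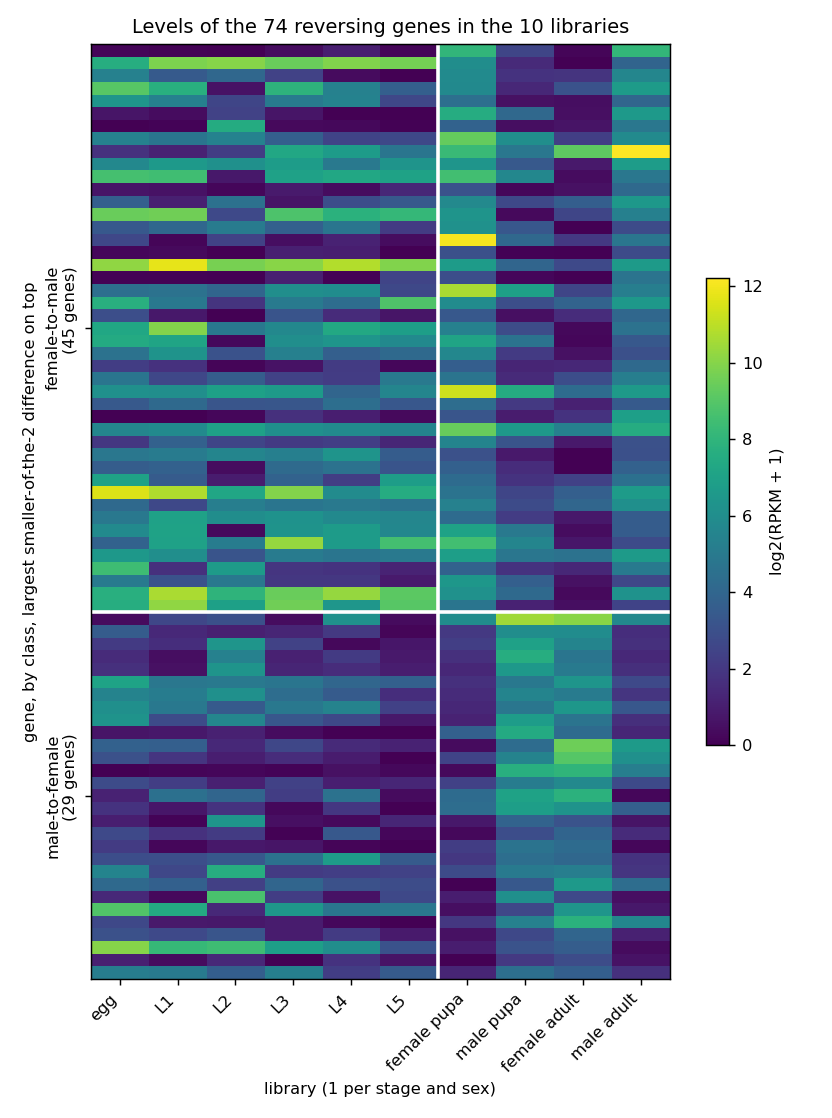
Heat map of log2(RPKM + 1) for the 74 genes (1 row each, ordered by class and by the smaller of the 2 sex differences) in the 10 libraries (columns). The 4 columns on the right were used by the rule; in the 6 columns on the left, which it did not use, the class medians are higher in the female-to-male genes in every column but L2, where they are 3.23 and 3.25.

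In the female-to-male class the low libraries were the male pupa and, more deeply, the female adult. Female pupa and male pupa had median levels of 54.3 and 4.85 RPKM over the 45 genes, and female adult and male adult 0.785 and 27.3 RPKM. The lowest of the 4 sexed values was in the female adult for 30 genes (66.7%) and in the male pupa for 15 (33.3%). The rule allows these members no other lowest library. Over all genes the shares were 37.0% and 15.6%, so the female adult was the more frequent of these libraries there too. A level of 1 RPKM was reached by 22 of the 45 genes in the female adult and by 36 in the male pupa. These are 48.9% and 80.0%, against 85.7% and 93.8% of all genes. The highest of the 4 values was in the female pupa for 26 genes (57.8%) and in the male adult for 19 (42.2%). Over all genes these shares were 38.2% and 20.3%. The median difference, female minus male, was 2.86 in the pupa (range 2.02 to 7.90) and -2.97 in the adult (range -7.94 to -2.01).

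RR48_11676 had the deepest reversal of all members. It had 264 RPKM in the female pupa and 4.82 in the male pupa (5659 and 105 reads), and 0.116 RPKM in the adult female and 272 in the adult male (2 and 4468 reads). The female pupa was thus 54.7 times the male pupa (counting interval 45.1 to 67.0), and the male adult 2351 times the female adult (counting interval 650.3 to 19416), the second ratio resting on 2 reads. Its levels in the high pupa and in the high adult were nearly equal. Outside these libraries it was close to silent, at 0.134 RPKM in the egg and 0.0655, 0, 0.337, 1.05 and 0.134 RPKM in L1 to L5.

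RR48_12802 followed in the class, with a very different course before the pupa. Female pupa and male pupa had 62.8 and 1.73 RPKM (535 and 15 reads), a ratio of 36.2 (counting interval 21.7 to 65.1). The female adult had 0 reads and the male adult 95 reads, or 14.6 RPKM, which is at least 33.3-fold higher against a floor of 3 reads in the female adult. In the egg and L1 to L5 it had 193, 903, 1011, 695, 959 and 802 RPKM, so that its highest sexed level, in the female pupa, was below every egg and larval value. The reversal of this gene therefore took place on the low side of its range, and that of RR48_11676 at the top.

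**Figure D3:**
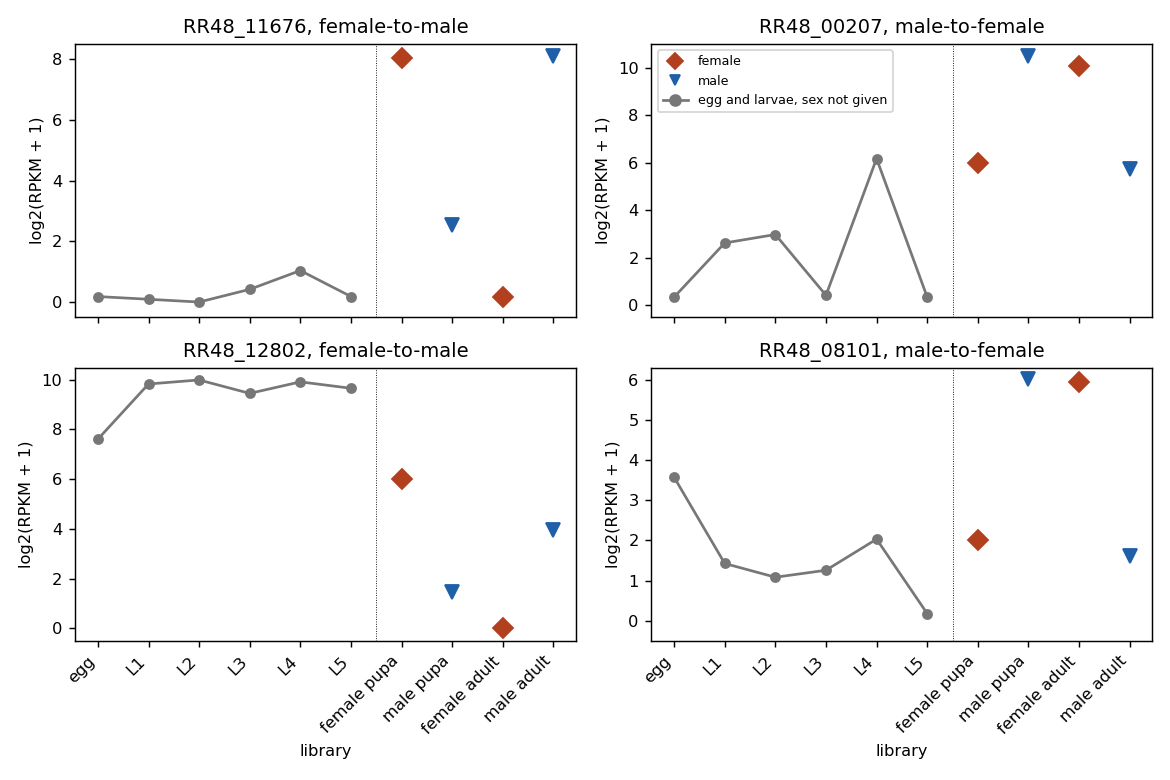
log2(RPKM + 1) in the 10 libraries for the 2 members of each class with the largest smaller-of-the-2 sex differences: RR48_11676 and RR48_12802 on the left, RR48_00207 and RR48_08101 on the right. Diamonds are females, triangles males and circles egg and larvae; each point is 1 library. The egg and larval values of RR48_12802 lie above all of its sexed values, while those of RR48_11676 lie near 0.

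The most abundant genes of the female-to-male class were RR48_02324 and RR48_08858. RR48_02324 had 308 RPKM in the female pupa and 27.7 in the male pupa, and 575 RPKM in the adult female and 4771 in the adult male. The ratios were 11.1 in the pupa (female over male, counting interval 10.6 to 11.7) and 8.30 in the adult (male over female, counting interval 8.20 to 8.39). It was the only member of its class that was higher in the female adult than in the female pupa, and here both sexes were higher in the adult. In the egg, L1 and L2 it had 2.35, 1.25 and 3.66 RPKM, and in L3, L4 and L5 158, 102 and 26.3 RPKM.

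RR48_08858 had 4182 RPKM in the female pupa and 16.5 in the male pupa, the largest pupal difference among the 74 members on log2(RPKM + 1), at 7.90. As a ratio of RPKM it was 253-fold (counting interval 229 to 280.3), which RR48_04847 and RR48_06680 exceeded, at 930.5-fold and 355-fold on 3 and 11 reads in the lower pupa, both named after their values were seen. The adult difference was smaller and at a lower level, with 3.08 RPKM in the female and 27.3 in the male (8.86-fold, male over female, counting interval 6.72 to 11.9). Its egg value was 5.06 RPKM, and its larval values were 0.122, 4.32, 0.366, 1.26 and 0.313 RPKM in L1 to L5. The female pupa thus stood far above the other 9 libraries.

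In the male-to-female class the levels of the high and of the low libraries were nearly matched between the stages. Female pupa and male pupa had median levels of 1.86 and 34.1 RPKM over the 29 genes, and female adult and male adult 35.9 and 2.25 RPKM. The highest sexed value was in the female adult for 15 genes and in the male pupa for 14. The lowest was in the female pupa for 16 genes and in the male adult for 13. Over all genes the highest was in the female adult for 18.4% and in the male pupa for 23.1%. The lowest was in the female pupa for 23.5% of all genes and in the male adult for 23.8%. The median difference, female minus male, was -3.21 in the pupa (range -7.42 to -2.05) and 3.02 in the adult (range 2.01 to 7.63).

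RR48_00207 had both the deepest reversal and the highest mean level of this class. Female pupa and male pupa had 63.0 and 1433 RPKM (669 and 15435 reads), and female adult and male adult 1072 and 51.9 RPKM (9156 and 421 reads). The male pupa was 22.7 times the female pupa (counting interval 21.0 to 24.6), and the female adult 20.7 times the male adult (counting interval 18.7 to 22.8). Before the pupa it was uneven, with 0.271 RPKM in the egg and 5.16, 6.89, 0.340, 71.1 and 0.271 RPKM in L1 to L5, so that L4 was at about the level of the lower pupa and adult.

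RR48_08101 had 3.06 RPKM in the female pupa and 63.4 in the male pupa, and 60.3 RPKM in the adult female and 2.07 in the adult male. The male pupa was 20.8 times the female pupa (counting interval 18.8 to 23.0) and the female adult 29.1 times the male adult (counting interval 25.4 to 33.6). It had 10.9 RPKM in the egg and 1.68, 1.12, 1.39, 3.08 and 0.131 RPKM in L1 to L5. The egg was higher than the 5 larvae and lay between the low and the high sexed values.

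RR48_03006, second in mean level, had 0.283 RPKM in the female pupa and 19.0 in the male pupa, with 3 reads in the female (67.4-fold, male over female, counting interval 22.7 to 329.3). The female adult had 746 RPKM and the male adult 100.3 RPKM, a ratio of 7.44 (counting interval 6.92 to 8.01). It was the only gene of the class at least 2 higher in the male adult than in the male pupa, so that the adult level was above the pupal level in both sexes. The egg had 12.9 RPKM, and L1 to L5 11.8, 1.65, 5.10, 1.72 and 1.22 RPKM.

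A reversal can come from a change between pupa and adult in 1 sex or in both, and in most members both sexes differed between the stages in opposite directions. In the female-to-male class, female adult minus female pupa had a median of -4.00, with 37 of 45 genes at -2 or below. Male adult minus male pupa had a median of 2.51, with 27 genes at 2 or above and 10 genes lower in the adult. RR48_09316 was the only gene of the class at least 2 lower in the male adult than in the male pupa, at 6.01 against 45.6 RPKM, and it was named after its values were seen. In the male-to-female class, female adult minus female pupa had a median of 3.51, with 26 of 29 genes at 2 or above and all 29 above 0. Male adult minus male pupa had a median of -2.74, with 20 genes at -2 or below and 4 above 0. Over all 13791 genes the medians were -0.41 in females and -0.22 in males. Of all these genes, 1270 were at 2 or above and 1595 at -2 or below in females, against 1209 and 1120 in males. In both classes the female libraries thus held the larger median stage difference and more genes at 2 or beyond. This is a description of values that the rule used.

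The libraries in which a member was high did not have equal levels gene by gene. In the female-to-male class the male adult was within 1 of the female pupa on the log2 scale for 24 of 45 genes, with a range of the difference from -7.21 to 3.95. In the male-to-female class the female adult was within 1 of the male pupa for 14 of 29 genes, with a range from -3.40 to 5.22. The low libraries were within 1 of each other for 15 of 45 genes (female adult minus male pupa) and for 18 of 29 genes (male adult minus female pupa). Of all 13791 genes, the male adult was within 1 of the female pupa for 6310. The female adult was within 1 of the male pupa for 7003. Unequal levels between these libraries are thus frequent over all genes too, and nothing about the members is read from these counts.

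The egg and the larvae were not used by the rule, and the classes differed in them. In the order egg and L1 to L5, the median log2(RPKM + 1) of the female-to-male class was 4.87, 4.61, 3.23, 4.98, 4.62 and 3.70. The male-to-female class had medians of 2.79, 2.21, 3.25, 2.14, 2.05 and 0.90 on the same scale. Over all 13791 genes the medians were 3.48, 3.38, 3.61, 3.63, 3.65 and 2.92. The female-to-male class was therefore above the median of all genes in 5 of 6 libraries, the exception being L2, and the male-to-female class below it in all 6. The 479 genes higher in the female pupa had 3.67, 3.59, 3.21, 4.07, 3.75 and 3.41, also below all genes only in L2. The 1228 genes higher in the male pupa had 1.69, 1.06, 2.99, 1.15, 1.45 and 0.73, also below in all 6. The genes higher in the female adult were above all genes in all 6, and those higher in the male adult below. The class directions are thus those of the pupal lists. With 1 library per stage these are values without a test, and genes of a class are not replicates.

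**Figure D4:**
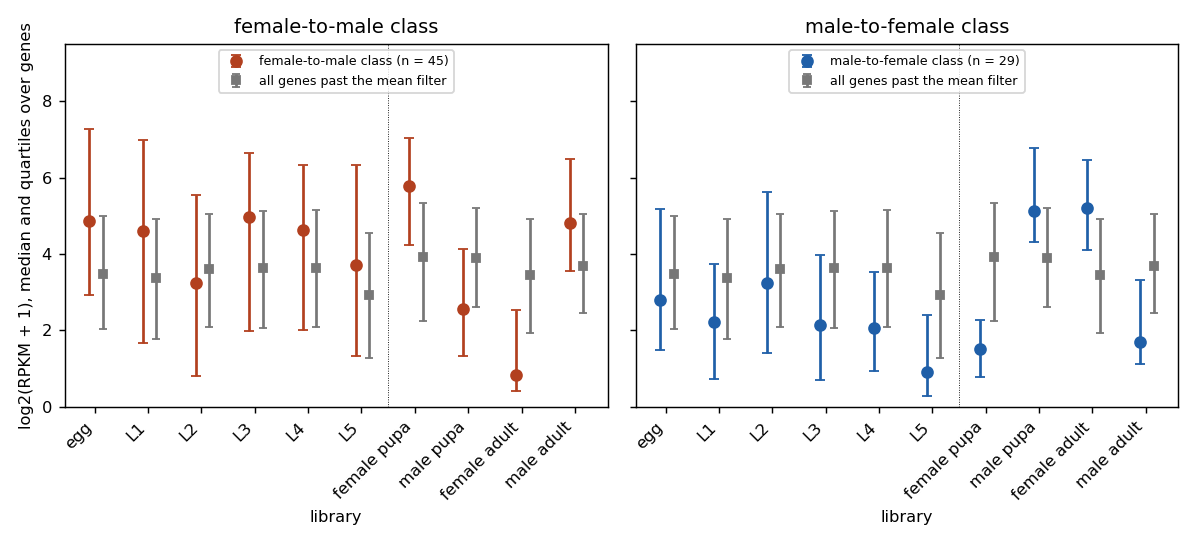
Median log2(RPKM + 1) over the genes of a class (circles) and over all 13791 genes (squares) in each library, with bars from the lower to the upper quartile over genes. Left of the dotted line are the 6 libraries that the rule did not use: the female-to-male medians lie between 3.23 and 4.98 and the male-to-female medians between 0.90 and 3.25.

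The share of genes detected throughout was below that of all genes in both classes. At least 1 RPKM in all 6 egg and larval libraries was reached by 26 of 45 female-to-male genes (57.8%) and by 11 of 29 male-to-female genes (37.9%), against 71.9% of all genes. Together 37 of the 74 members reached it, and 43 when the L2 library was left out. The share of all genes without L2 was not worked out, so nothing about the members is read from that count. A level of 100 RPKM in at least 1 of the 6 libraries was reached by 21 of 45 (46.7%) and 6 of 29 (20.7%), against 17.1% of all genes. The female-to-male genes were therefore both more often very high and more often below 1 RPKM somewhere than all genes in these 6 libraries. Of the genes higher in females in both stages, 78.1% reached 1 RPKM in all 6 libraries and 35.6% reached 100 RPKM in some. Of the genes higher in males in both stages, these shares were 18.4% and 18.7%. Very high early levels were thus not particular to the female-to-male class. The only member below 1 RPKM in the egg and in all larvae was RR48_04847 of the male-to-female class, named here after its values were seen. It had at most 0.482 RPKM there, then 0.224 RPKM in the female pupa and 208 in the male pupa, and 254 RPKM in the adult female and 36.1 in the adult male.

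Each member's median over egg and larvae was also placed against its own sexed values. The higher pair is the gene's 2 highest sexed values, and the lower pair its 2 lowest. In the female-to-male class the early median reached the smaller value of the higher pair in 17 of 45 genes (37.8%), was at or below the larger value of the lower pair in 16 (35.6%), and lay between in 12 (26.7%). In the male-to-female class these numbers were 4 of 29 (13.8%), 16 (55.2%) and 9 (31.0%). Over all genes the shares were 24.0%, 51.6% and 24.6%. The genes higher in females in both stages had 43.8%, 15.1% and 41.1%, and the genes higher in males in both stages 11.4%, 50.3% and 38.3%. The male-to-female share at or below the lower pair was thus near that of all genes.

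The named genes with the highest early levels had sexed values well below their highest early value. They were named for their early levels, which sets part of this contrast. RR48_05078 had 3082 RPKM in the egg and 1721, 148, 992, 58.2 and 186 RPKM in L1 to L5. It had 24.5 RPKM in the female pupa and 4.85 in the male pupa, and 12.1 RPKM in the adult female and 101.8 in the adult male. Its male adult was thus above its L4 value. RR48_04387 had 1160.0 RPKM in the egg and 3440.3, 825, 1058, 1816 and 952 RPKM in L1 to L5. It had 104.4 RPKM in the female pupa and 15.0 in the male pupa, and 5.58 RPKM in the adult female and 99.7 in the adult male. Every sexed value of RR48_04387 was below every egg and larval value.

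Among the male-to-female genes, RR48_11801 and RR48_11796 had the highest egg levels, and their tags lie within 5 positions of each other. RR48_11801 had 1039 RPKM in the egg and 292, 338, 113, 61.8 and 7.58 RPKM in L1 to L5, then 0.993 RPKM in the female pupa and 7.68 in the male pupa, and 11.0 RPKM in the adult female and 0.300 in the adult male. RR48_11796 had 480 RPKM in the egg and 177, 1.66, 86.5, 26.9 and 27.3 RPKM in L1 to L5, then 0.384 RPKM in the female pupa and 5.11 in the male pupa, and 83.2 RPKM in the adult female and 0.717 in the adult male. The female adult exceeded the male adult 36.7-fold in RR48_11801 (counting interval 12.3 to 180.8, 3 reads in the male) and 116-fold in RR48_11796 (20 reads in the male). Both genes were named for their egg level, and each was highest in the egg. All 29 genes of the class were higher in the female adult than in the female pupa, so that is not particular to these genes.

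The egg stood above the larvae, and also below them, for larger shares of members than of all genes. The egg was at least 2 above the median of L1 to L5 for 8 of 29 male-to-female genes (27.6%) and for 10 of 45 female-to-male genes (22.2%), against 4.61% of all genes. The median difference, egg minus the larval median, was 1.07 in the male-to-female class, 0.13 in the female-to-male class and 0.04 over all genes. Among the 376 genes that were higher in the female adult, most of them not members, the share above was 12.2% and the median 0.27. Among the 1228 genes higher in the male pupa these were 12.2% and 0.28. The egg was at least 2 below the larval median for 3 female-to-male genes (6.67%) and 2 male-to-female genes (6.90%), against 2.30% of all genes. At the other end of larval life, L5 was at least 2 below the median of L1 to L4 for 6 of 29 male-to-female genes (20.7%). This held for 5 of 45 female-to-male genes (11.1%), against 3.6% of all genes and 11.7% of the genes higher in the female adult. L5 was at least 2 above that median for 4 female-to-male genes (8.89%) and 0 male-to-female genes, against 1.51% of all genes. Among the genes higher in females in both stages, the share above was 15.1%. There was 1 library of egg and of L5, and no test of these shares was made.

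The L2 library stood apart from the other instars for many members, and in different directions in the classes. L2 was at least 2 above the median of L1, L3, L4 and L5 for 9 of 29 male-to-female genes (31.0%) and at least 2 below it for 1 (3.45%). In the female-to-male class it was at least 2 above for 7 of 45 genes (15.6%) and at least 2 below for 13 (28.9%). Over all genes these shares were 5.5% above and 3.37% below. Among all 1228 genes that were higher in the male pupa, L2 was at least 2 above for 32.7%, and among the 479 genes higher in the female pupa it was at least 2 below for 19.2%. Across the 74 members, L2 minus the other instars and the pupal sex difference had a Pearson correlation of -0.37, against -0.44 across all 13791 genes. Genes of 1 pair of libraries share depth and are not independent points.

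**Figure D5:**
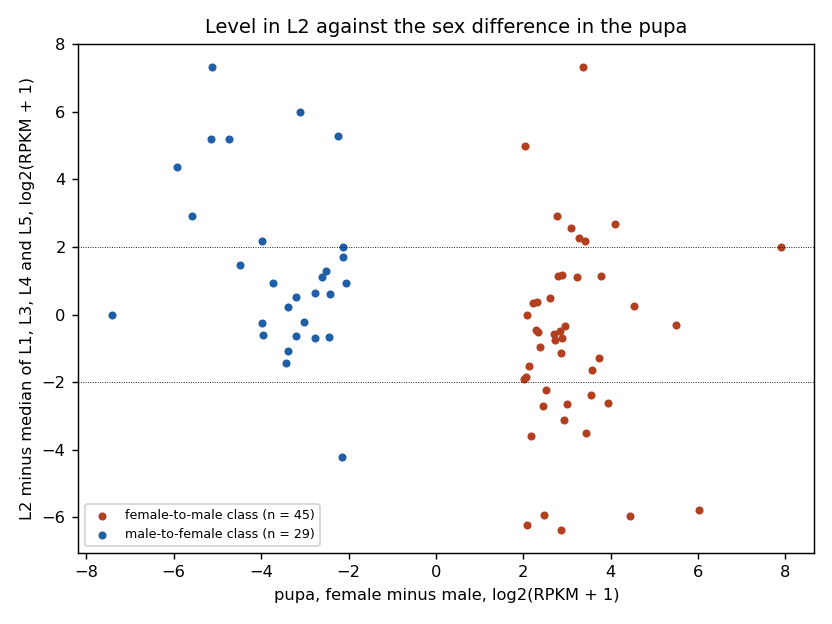
L2 minus the median of L1, L3, L4 and L5 (vertical axis, log2(RPKM + 1)) against female minus male in the pupa (horizontal axis) for the 74 members, 1 point per gene, with dotted lines at 2 and -2. Of the male-to-female genes on the left, 9 lie at 2 or above and 1 at -2 or below; of the female-to-male genes on the right, 7 lie at 2 or above and 13 at -2 or below.

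RR48_03158 of the male-to-female class had the clearest L2 value of the named members. The gene was named for its larval mean, which rests mainly on L2. It had 422 RPKM in L2, against 0.232, 3.59, 0.534 and 5.24 RPKM in L1, L3, L4 and L5 and 1.67 RPKM in the egg. The female pupa had 0.993 RPKM and the male pupa 68.0, and the female adult 5.55 RPKM and the male adult 0.433. Its highest level was thus in L2, and the male pupa was next. Its adult difference rested on 27 and 2 reads (12.8-fold, female over male, counting interval 3.22 to 111).

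Some members had consecutive locus tags, and all members of a run were of 1 class. Of the 74 genes, 12 lay in 5 runs of 2 or 3 consecutive tags. Of 125 neighbouring tag positions that passed the mean filter, counted once for each member they touch, 14 held another member (11.2%), against 0.537% of all genes. Within 5 tags, 16 members had another member, again of the same class in every case. Whether tags follow the order along the genome is not given in the sources used here, and neighbouring copies of a gene can share reads, which was not tested.

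The longest runs had 3 genes and were named after their values were seen. The run that begins at RR48_05391 belongs to the female-to-male class. Its genes had 130.5, 140.0 and 366 RPKM in the female pupa and 29.9, 24.5 and 49.7 in the male pupa, and 0.342, 0.168 and 0.313 RPKM in the female adult and 10.7, 9.19 and 27.6 in the male adult. In the egg and L1 they were at 57.0 to 395 RPKM, and in L2 at 0.222, 0.198 and 0.737 RPKM, while L3 to L5 lay between 48.9 and 157 RPKM. The Pearson correlations within the run over egg and larvae were 0.96 to 1.00 across 6 libraries. The low L2 values that these genes share carry much of these correlations. Outside L2 the profiles were not parallel throughout. The egg was below L1 in the first gene (57.0 against 132 RPKM). In the other genes of the run it was above L1 (178 against 139 RPKM, and 395 against 358 RPKM). The tag before this run had differences of the same sign in both stages, at -1.15 in the pupa and -1.39 in the adult, and the tag after it had 3.69 in the pupa and 0.30 in the adult.

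The run that begins at RR48_14527 belongs to the male-to-female class. Its genes had 2.95, 4.55 and 3.83 RPKM in the female pupa and 40.5, 43.9 and 126.9 in the male pupa, and 222, 502 and 44.0 RPKM in the female adult and 49.9, 68.9 and 2.25 in the male adult. The first and second genes of the run had at most 7.15 RPKM in egg and larvae, and 0 in L5. The third gene shared with them the directions of the sex differences, which the rule fixes, but not the levels. Its highest sexed value was in the male pupa, and theirs was in the female adult. Its male adult was below its male pupa, and theirs was above. The third gene also had 83.0 RPKM in L2, and over egg and larvae the correlations within the run ran from 0.08 to 0.93.

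The tags next to members that were not members themselves were compared in the direction of the class. These 111 tags cannot meet the whole rule, since members were left out. Of 66 tags next to female-to-male members, 7 (10.6%) were at least 2 higher in the female pupa, against 3.47% of all genes, and 13 (19.7%) at least 2 higher in the male adult, against 8.95%. Of 45 tags next to male-to-female members, 10 (22.2%) were at least 2 higher in the male pupa, against 8.9% of all genes, and 3 (6.67%) at least 2 higher in the female adult, against 2.73%. The signs of the class in both stages, whatever the size, were found in 22 of the 66 tags (33.3%), against 26.1% of all genes, and in 13 of the 45 (28.9%), against 15.7%. Each of these 6 shares was above that of all genes, and none was tested.

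Members were also set against the genes whose sex difference kept its direction, 73 higher in females and 342 higher in males in both stages. The median over genes of the early level (the median of log2(RPKM + 1) over egg and larvae) was 4.38 in the female-to-male class and 1.84 in the male-to-female class, against 4.67 in the genes higher in females, 0.54 in the genes higher in males and 3.42 in all genes. Below 1 RPKM in all 6 early libraries lay 0 of 45 and 1 of 29 members, against 1 of 73 genes higher in females and 77 of 342 genes higher in males (22.5%). The male-to-female genes thus had early levels between those of the genes with a constant direction. The median level of the female-to-male genes was near that of genes higher in females. Fewer of them reached 1 RPKM in all 6 early libraries, at 57.8% against 78.1% of genes higher in females. These are levels and shares of groups chosen on the sexed libraries, and the differences were not tested.

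Within a class the early profiles were not of 1 kind. The mean pairwise Pearson correlation over egg and L1 to L5 was 0.04 among the female-to-male genes and 0.24 among the male-to-female genes. Over all genes it was 0.12. Genes higher in females in both stages had 0.02, and genes higher in males in both stages 0.20, so these values are not particular to the members. The highest of the 6 early libraries was the egg for 12 of 45 female-to-male genes (26.7%) and for 12 of 29 male-to-female genes (41.4%), against 20.4% of all genes. It was L2 for 9 genes of each class (20.0% and 31.0%), against 19.9% of all genes. L4 was highest for 4 female-to-male genes (8.89%) and 7 male-to-female genes (24.1%), against 27.0% of all genes. The lowest early library, with ties given to the earlier stage, was L2 for 20 of 45 female-to-male genes (44.4%), against 13.7% of all genes. In the male-to-female class it was L5 for 13 of 29 genes (44.8%), near the 41.9% of all genes. Relative gene length, read from the value of 1 read, had a median of 0.861 times that of all genes.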

How the data were processed

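RNA of 10 whole-body stages was sequenced as paired-end Illumina libraries of poly-A+ RNA, and the authors deposited 1 table of RPKM values (reads per kilobase, scaled to library size). The submitters' processing notes list TopHat 1.0.12 and 1.4.1; the study's methods describe mapping reads to its own assembly, while the counting tool and the library denominators are not given in the sources used here. All 10 columns matched a library by name (0 left over). Of 15285 locus tags, 0 matched the RefSeq gene table (14718 genes, assembly ilPapMach1.1), so no names, positions or sequences are given.

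Whole reads were recovered from the RPKM steps: the ratio of libraries from the commonest ratio of their values, and the reads of a gene as the smallest whole numbers (tolerance 1e-05) that give all its values, found for all 15285 genes. Genes with few reads can be too small by a whole factor. In simulated data, the recovered reads equalled those put in for 99.87% of 15256 genes. All 200 reversing genes added for pupa and adult were placed in their own class, and 0 others were found. The simulation checks only the steps of the calculation. It cannot tell how reliable the real members are, since 1 library per group shows no spread between individuals.

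Differences are on log2(RPKM + 1), which understates low genes. With 1 library per group no test was run. Counting intervals are exact 95% Clopper-Pearson intervals. Within each class, the genes named were the 2 with the largest smaller-of-the-2 differences, the highest mean over the sexed libraries, the highest egg level and the highest larval mean. The members and lists were chosen with earlier results of these data known. Alternatives were a pseudocount of 0.1, 75th percentile scaling, scaling to reads on genes, other filters and other thresholds. Python 3.11.15, numpy 2.4.6, pandas 2.3.3 and scipy 1.17.1 were used.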

Additional observations from a re-analysis of the deposited data

Results flagged for a closer look

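Among the 12 named members, 1 had a larval library far from the other 4 instars. RR48_03158 (male-to-female class) was high in L2, where the gap to the next instar was 0.722 of the range of log2(RPKM + 1) over L1 to L5. The instars are stages and not replicates. In groups of replicates, chance alone sets a library apart in about 1 of 20. That rate does not apply to RR48_03158, since the gene was named for its larval mean of 86.3 RPKM. This mean rests mainly on its 422 RPKM in L2.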

How the results depend on the processing

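The number of reversing genes (74, of which 45 female-to-male and 29 male-to-female) depended most on the size of the difference and on the pseudocount. With a pseudocount of 0.1 it was 169 (108 and 61), and all 74 genes were among them; a smaller pseudocount widens the differences of low genes by construction. With a difference of at least 1 in each stage it was 433 (231 and 202), and with at least 3 it was 18 (9 and 9). Scaling by the 75th percentile gave 71 genes, 66 of them among the 74, and scaling to reads on genes 80, with 73 of the 74. These scalings moved the median female minus male difference of all genes in the pupa to -0.06 and 0.30, against 0.10 as deposited, and in the adult to -0.09 and -0.25, against -0.13. A mean of at least 5 RPKM kept 70 of the 74, and without a filter the set was the same 74. With a pseudocount of 0.1, the genes at least 2 apart between the sexes in the adult numbered 2424, against 1610. At least 5 RPKM in egg and all larvae was reached by 21 members, against 37 at 1 RPKM. Without the L2 library, an alternative added after seeing the data, 43 reached 1 RPKM. The shares of all genes under these alternatives were not worked out. No library could be left out of the sexed comparisons, and no paired analysis was possible because there was 1 library per sex and stage. Depth limits the low side: 6 members had 0 reads in a lower library, so their ratios are lower bounds.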
